A study of Mus musculus with 6 samples.

Results

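Inhibition in the spinal cord runs on glycine and GABA, and 9 genes of that system were followed in mice with and without Nogo-A: Gad1, Gad2, Slc32a1, Slc6a5, Glra1, Glra2, Glra3, Glrb and Gphn. They were chosen by name for what their products do in transmitter synthesis, transport and reception. Every probe set annotated to one of them was taken, which gave 20 of the 45101 probe sets on the array. The tissue was spinal cord, and its RNA was hybridised to Affymetrix Mouse 430 2.0 arrays, 1 for each of 6 mice. All were C57Bl/6 males of 4 months without treatment, of which 3 were wild type and 3 were Nogo-A knockout. Nogo-A, made from Rtn4, sits in the membrane of oligodendrocytes and of some nerve cells and limits the growth of axons. How the knockout allele was made is not given in the sources used here, and neither are littermates, cages or scan dates.

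Inhibitory interneurons of the cord make GABA from glutamate with glutamate decarboxylase, whose forms GAD67 and GAD65 come from Gad1 and Gad2. Glycine is taken up at the terminal by the transporter GlyT2 (Slc6a5), and both transmitters are loaded into vesicles by a shared transporter, VGAT (Slc32a1), so many of these cells release both. On the receiving cell glycine opens a chloride channel built from alpha subunits (Glra1, Glra2 and Glra3) and the beta subunit (Glrb). The beta subunit binds gephyrin (Gphn), the scaffold that holds glycine receptors, and many GABA receptors, under the terminal. Glycine receptors with the alpha 1 subunit are the main adult form in the cord, and their loss causes exaggerated startle.

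None of the 9 genes differed between genotypes past the test. Knockout was compared with wild type by limma on log2 intensities over all probe sets above a filter on dim signals, with Benjamini-Hochberg adjusted p under 0.05 as the threshold. A probe set was kept if 2 or more of the 3 arrays of either genotype had it at or above the array median. It passed 16 of the 20, at least 1 for each gene, and 23525 probe sets in all. Of the 16, 0 had an adjusted p under 0.05, and their adjusted p-values in limma lay between 0.594 and 0.997. Over all tested probe sets 1 passed, or 0.00425%, a probe set of Rtn4, the gene of Nogo-A. At an unadjusted p under 0.05 in limma, 1 of the 16 was higher in knockout, where 4.31% of all tested probe sets were, and 1 was lower, where 3.98% were. Both directions made 2 of the 16, against 8.29% of all tested probe sets. Changes above and below 0 were equally many, 8 each. The brightest tested probe sets of the 9 genes had a median log2 change of -0.02. The median was 0.03 over 11645 genes, each at its brightest tested probe set, and 0.01 over all tested probe sets. For 12 of the 16 the 95% interval of the change stayed within 1.5-fold in either direction, as it did for 52.7% of all tested probe sets.

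**Figure D1:**
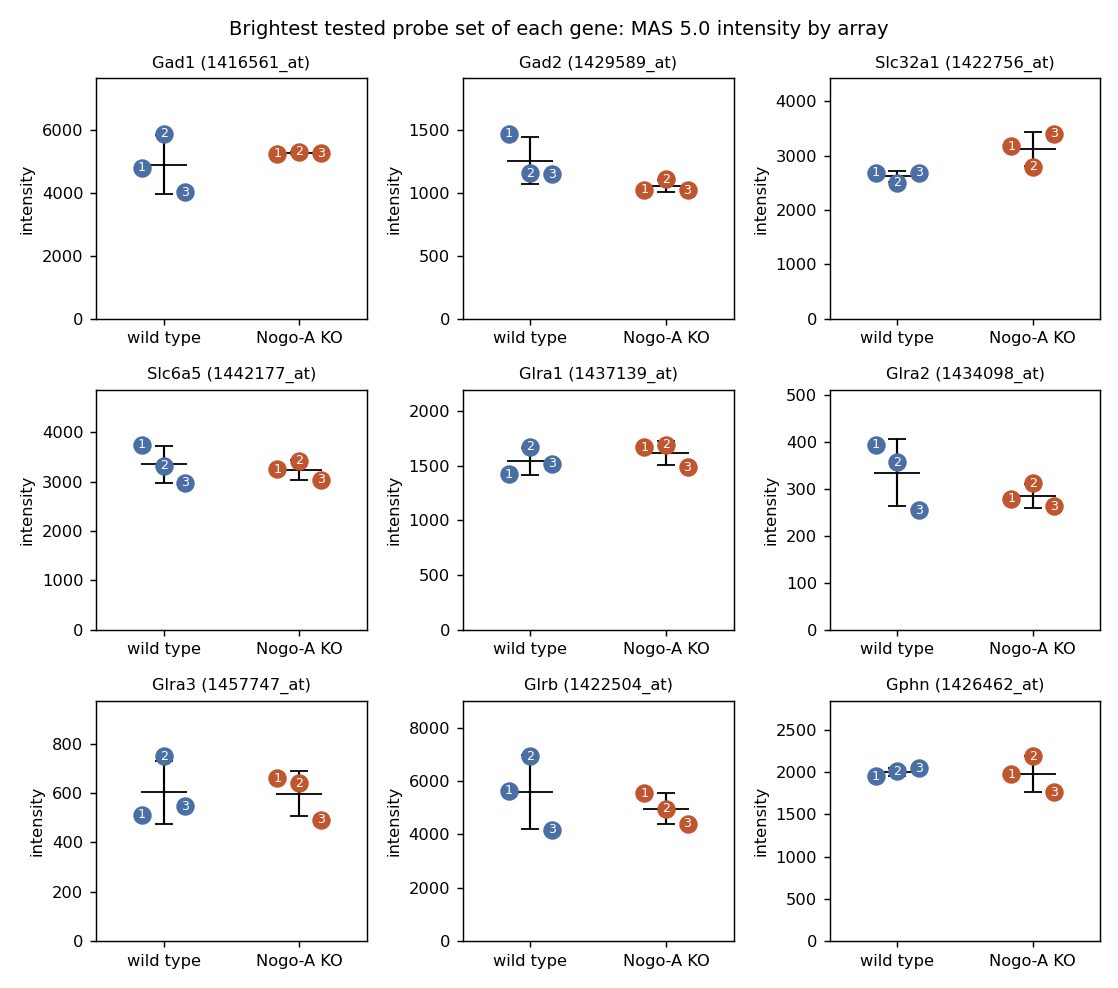
MAS 5.0 intensity (linear axis from 0) of the brightest tested probe set of each of the 9 genes, by genotype. Each numbered point is 1 array, the number is the label's replicate number, and bars give the mean and SD of 3 arrays. The genotypes overlap in 7 of the 9 panels, and Gad2 and Slc32a1 are the exceptions.

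Some facts of the arrays touch these results. The knockout labels were checked on Rtn4, whose probe set 1437224_at read 2790 to 3560.2 in wild type and 5.08 to 78.2 in knockout, while its other 4 probe sets were higher in every knockout array than in any wild type array. Array medians were 148, 170 and 196 for wild type replicates 1 to 3, and the 3 knockout arrays had 144 to 149, although all arrays had been scaled to the same trimmed mean of 500.0. Markers of the main cell types of the cord were measured, with 8 of 8 neuron markers, 6 of 6 astrocyte markers and 5 of 5 oligodendrocyte markers above the filter, while 3 of 6 markers of motor neurons and 0 of 4 of sensory ganglion neurons were. Chat, which makes acetylcholine in motor neurons, read 75.1 to 142 and was among those not tested. The summed intensity of the 8 neuron markers was 106629 to 124636 in wild type and 127374 to 133037 in knockout, and that of the 5 oligodendrocyte markers was 100897 to 103389 and 115517 to 128505. Of those 5, 2 were higher and 0 lower at an unadjusted p under 0.05 in limma. Mog, 1 of the 5, was at 0.973-fold with overlapping genotypes. The 5 markers of meninges and fibroblasts summed to 6348 to 8187 in wild type and 9357 to 10444 in knockout, with 4 higher and 1, Lum, lower at an unadjusted p under 0.05 in limma. Of all tested probe sets 4.31% were higher and 3.98% lower at that p. Of 11645 genes, each at its brightest tested probe set, 576 were higher and 379 lower. Skeletal muscle markers stood apart on wild type replicate 3 and knockout replicate 2, where the 9 genes summed to 11732 and 20687 against 6265 to 7312 on the other 4 arrays. The 9 include Pvalb, also a product of inhibitory interneurons, which read 4866 to 6349 over the 6 arrays. It made up most of the sum on the other 4 arrays. The part of these differences in the values below was not tested. In whole tissue, fewer cells of a type and less RNA per cell cannot be told apart.

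Synthesis of GABA was measured by 4 probe sets. Gad1, the gene of the decarboxylase that supplies most GABA, had its brightest probe set at 1416561_at. In the order of the replicate numbers, kept below, it read 4811, 5887 and 4027 in wild type and 5255, 5311 and 5267 in knockout. The knockout values lay close together inside the wild type range. The change was 1.09-fold with a 95% interval of 0.899 to 1.32 (limma adjusted p = 0.805, n = 3 each). The other Gad1 probe set, 1416562_at, read 1668, 1268 and 1673 in wild type and 1701, 1771 and 2024 in knockout. Here all 3 knockout arrays were above every wild type array, by little, and the change was 1.199-fold (0.977 to 1.47, limma adjusted p = 0.625), or 0.26 on the log2 scale, which was 0.13 with wild type replicate 2 left out.

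Gad2 encodes the decarboxylase of nerve terminals, and its probe sets did not show one direction. The brighter, 1429589_at, read 1466, 1152 and 1144 in wild type and 1024, 1105 and 1019.6 in knockout. All 3 knockout arrays were below every wild type array, and the nearest pair, 1144 and 1105, differed by less than the wild type spread. The change was 0.842-fold (0.691 to 1.03, limma adjusted p = 0.632), and its log2 value went from -0.25 to -0.13 with wild type replicate 1 left out. The dimmer, 1421978_at, read 348, 312 and 461 in wild type and 341, 365 and 416 in knockout, so the genotypes overlapped. It had 1.01-fold with an interval of 0.751 to 1.36 (limma adjusted p = 0.987).

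Slc32a1, the vesicle transporter for both GABA and glycine, had the lowest p on the higher side. Its bright probe set, 1422756_at, read 2683, 2504 and 2682 in wild type (2623 ± 103, SD, n = 3) and 3171, 2794 and 3401 in knockout (3122 ± 306, SD, n = 3). Every knockout array was above every wild type array, with knockout replicate 2 nearest to them. The change was 1.19-fold (1.01 to 1.39), with an unadjusted p of 0.0362 and an adjusted p of 0.595 in limma. After quantile normalization its log2 change went from 0.25 to 0.18, with an unadjusted p of 0.109 in limma. The other 3 probe sets annotated to the gene, 1456457_at, 1447574_s_at and 1447573_at, read at most 110.5 on any array and did not pass the filter. In each the genotypes overlapped, and no level of the gene is read from them.

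Slc6a5 encodes GlyT2, the transporter that marks glycinergic neurons. At its bright probe set, 1442177_at, it read 3741, 3325 and 2975 in wild type and 3247, 3424 and 3036 in knockout. The genotypes overlapped fully, as the highest and the lowest of the 6 arrays were both wild type. The change was 0.97-fold, and its interval of 0.822 to 1.14 left out changes of 1.5-fold either way (limma adjusted p = 0.928). The dim probe set, 1425992_at, read 96.7, 203 and 253 in wild type and 194, 279 and 199.9 in knockout, near the median of the arrays. Its change of 1.297-fold carried an interval of 0.738 to 2.28 (limma adjusted p = 0.795), and its log2 change went from 0.38 to -0.03 without wild type replicate 1.

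Among the receptor's alpha subunits, Glra1 gave unlike values at its probe sets. The brighter, 1437139_at, read 1421, 1672 and 1518 in wild type and 1666, 1688 and 1486 in knockout. These groups overlapped, and the change was 1.05-fold (0.884 to 1.247, limma adjusted p = 0.883). The dimmer, 1422277_at, read 649, 671 and 628 in wild type (649 ± 21.8, SD, n = 3) and 410.4, 621 and 433 in knockout (488 ± 116, SD, n = 3). Knockout replicates 1 and 3 were far below the wild type arrays and replicate 2 was just below the lowest of them. The change was 0.739-fold (0.566 to 0.965), with an unadjusted p of 0.0297 and an adjusted p of 0.594 in limma. Which part of the transcript each probe set covers is not given in the sources used here.

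The log2 ratio of the brighter to the dimmer Glra1 probe set was 1.13, 1.32 and 1.27 in wild type and 2.02, 1.44 and 1.78 in knockout. All 3 knockout ratios were above the wild type ones, and the changes of the probe sets differed by 0.51 (exact permutation test, two-sided, p = 0.1, the smallest that 3 animals against 3 allow). Over the 7 such pairs within Gad1, Gad2, Slc6a5, Glra1, Glrb and Gphn, adjusted p-values of the exact permutation test were 0.7 to 0.9. With 0.1 as its smallest p, the permutation test could not have put any pair past the threshold, whatever the values. It therefore cannot decide whether the Glra1 probe sets differ in their change, and the pairs were compared after values were seen. In 2 of the 7 pairs, those of Gad1 and Glrb, both probe sets had a change of the same sign.

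Glra2 and Glra3 encode the other alpha subunits, and Glra2 is the form most used before birth. Glra2 had 1 probe set, 1434098_at, which read 393, 356 and 254 in wild type and 279, 312 and 262 in knockout. Wild type replicates 1 and 2 were the highest and replicate 3 the lowest of the 6, and the change was 0.862-fold (0.619 to 1.20, limma adjusted p = 0.801). Glra3, a subunit of the superficial dorsal horn linked to inflammatory pain, read 511, 749 and 547 in wild type and 660.4, 639 and 491 in knockout at 1457747_at. These overlapped, with knockout replicate 3 the lowest of the 6 and a change of 0.997-fold (0.753 to 1.32, limma adjusted p = 0.997). Its other probe set, 1450239_at, read at most 28.5 on any array and was not tested, and the knockout values of 2.30 to 10.5 lay under the wild type values of 12.8 to 28.5. Both ranges belong to the dimmest 18.5% of their arrays, and no change is read from them.

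Glrb, the subunit that anchors the receptor, had the largest SD of log2 values within wild type among the brightest probe sets of the 9 genes, 0.37. That probe set, 1422504_at, read 5626, 6932 and 4168 in wild type (5575 ± 1383, SD, n = 3) and 5536, 4967 and 4394 in knockout (4965 ± 571, SD, n = 3). The knockout values lay inside the wild type range. The change was 0.906-fold (0.707 to 1.16, limma adjusted p = 0.827). The other, 1459850_x_at, read 3314, 4700 and 2071 in wild type and 2547, 2537 and 2291 in knockout, a change of 0.771-fold (0.547 to 1.09, limma adjusted p = 0.671). The suffix x marks a probe set with probes that can bind other transcripts. Both probe sets put the 6 arrays in the same order, from wild type replicate 2 at the top to wild type replicate 3 at the bottom.

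The size of the Glrb changes moved with wild type replicates 2 and 3. Without wild type replicate 3 the log2 changes of the brighter and dimmer Glrb probe sets went from -0.14 and -0.37 to -0.34 and -0.68, with adjusted p-values of 0.307 and 0.170 in limma. With wild type replicate 2 left out, the brighter one was at 0.03 and the dimmer one at -0.09 (limma adjusted p = 0.983 and 0.945). The count at an unadjusted p under 0.05 also moved with the arrays left out. Without wild type replicate 3, 6 of the 16 probe sets were there in limma, where 11.9% of all tested probe sets were. These were 2 higher (Gad1 1416562_at and Slc32a1) and 4 lower (Gad2 1429589_at, Glra1 1422277_at and both of Glrb). With wild type replicate 3 and knockout replicate 2, the arrays with the most muscle signal, both left out, the same 6 were there, against 14.1% of all tested probe sets. Without knockout replicate 1 or knockout replicate 3 none of the 16 was, against 4.74% and 4.10% of all tested probe sets. Without wild type replicate 1 or 2 it was 1, against 14.2% and 5.75%. Without knockout replicate 2 it was 1 higher and 1 lower, against 6.88% in either direction. In each of these fits 0 passed the adjusted threshold in limma.

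Gphn, the scaffold gene, had 3 tested probe sets. The brightest, 1426462_at, read 1950, 2013 and 2046 in wild type and 1979, 2191 and 1763 in knockout. Wild type was tight, and knockout replicates 2 and 3 lay on either side of it. The change was 0.984-fold with an interval of 0.832 to 1.16 (limma adjusted p = 0.967). The next, 1426463_at, read 1734, 1629 and 1294 in wild type and 1729, 1758 and 1771 in knockout, a change of 1.14-fold (0.940 to 1.38, limma adjusted p = 0.693). Only wild type replicate 3 was clearly apart there, and the log2 change went from 0.19 to 0.06 when it was left out. The dimmest, 1430038_at, read 457, 632 and 546 in wild type and 543, 491 and 644 in knockout, or 1.03-fold (0.793 to 1.34, limma adjusted p = 0.962).

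**Figure D2:**
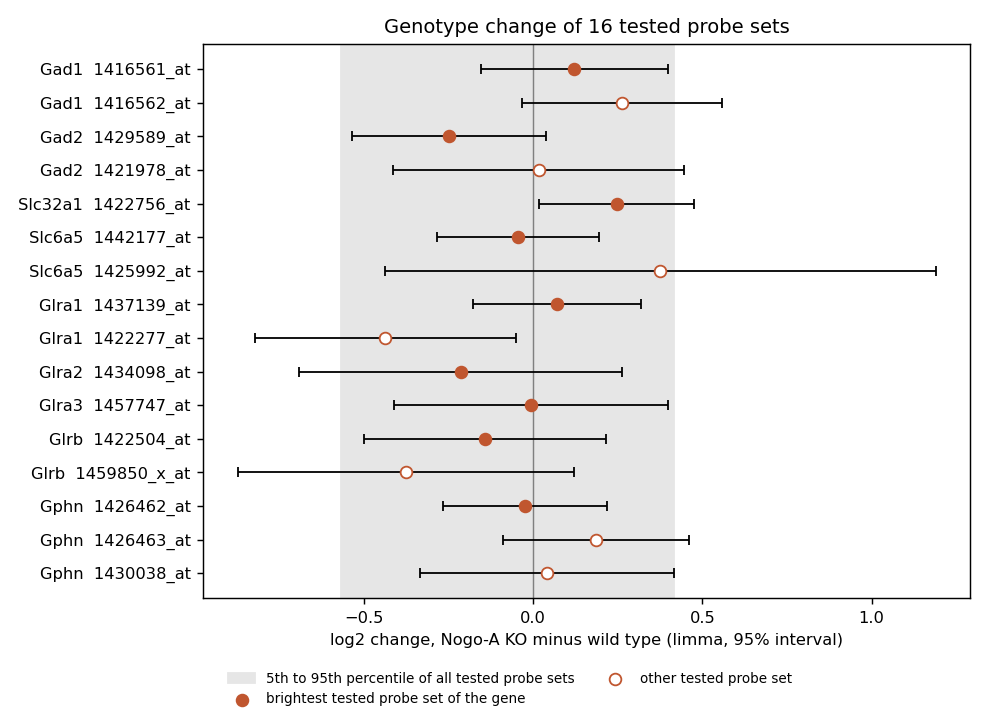
Log2 change of each of the 16 tested probe sets, knockout minus wild type, with 95% intervals from limma (n = 3 arrays per genotype). Filled points are the brightest tested probe set of a gene, open points the others, and the grey band runs from -0.57 to 0.42, the 5th to 95th percentile of the change over all 23525 tested probe sets. All intervals but those of Slc32a1 1422756_at and Glra1 1422277_at cross 0.

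In 4 of the 16 tested probe sets the genotypes did not overlap. In Gad1 1416562_at and Slc32a1 1422756_at knockout was higher, as in 7.85% of all tested probe sets. In Gad2 1429589_at and Glra1 1422277_at knockout was lower, as in 6.62%. The remaining Gad1, Gad2 and Glra1 probe sets overlapped, so within these genes a separation was seen at 1 probe set each. Replicates differed more among wild type than among knockout arrays in 13 of the 16 probe sets, by the SD of log2 values, and in 68% of all tested probe sets. The SD of log2 values at the Gad1 probe set 1416561_at was 0.27 in wild type and 0.0081 in knockout.

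Seen by array, the brightest probe sets of the 9 genes were on average 0.05 and 0.13 above their 6-array means on wild type replicates 1 and 2 and 0.14 below on wild type replicate 3, in log2 units. In knockout replicates 1 and 2 they were 0.03 and 0.04 above, and on knockout replicate 3 they were 0.11 below. The highest and the lowest array were thus both wild type. The neuron markers stood otherwise, with -0.03, -0.04 and -0.19 in the wild type and 0.04, 0.06 and 0.15 in the knockout arrays. Knockout replicate 3 was the highest array for the neuron markers and the second lowest for the 9 genes. The neuron markers had a median log2 change of 0.20, with 4 of 8 higher at an unadjusted p under 0.05 and 0 at an adjusted one in limma. Of all tested probe sets 4.31% were higher at the unadjusted one, and of 11645 genes at their brightest tested probe set 576 were.

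**Figure D3:**
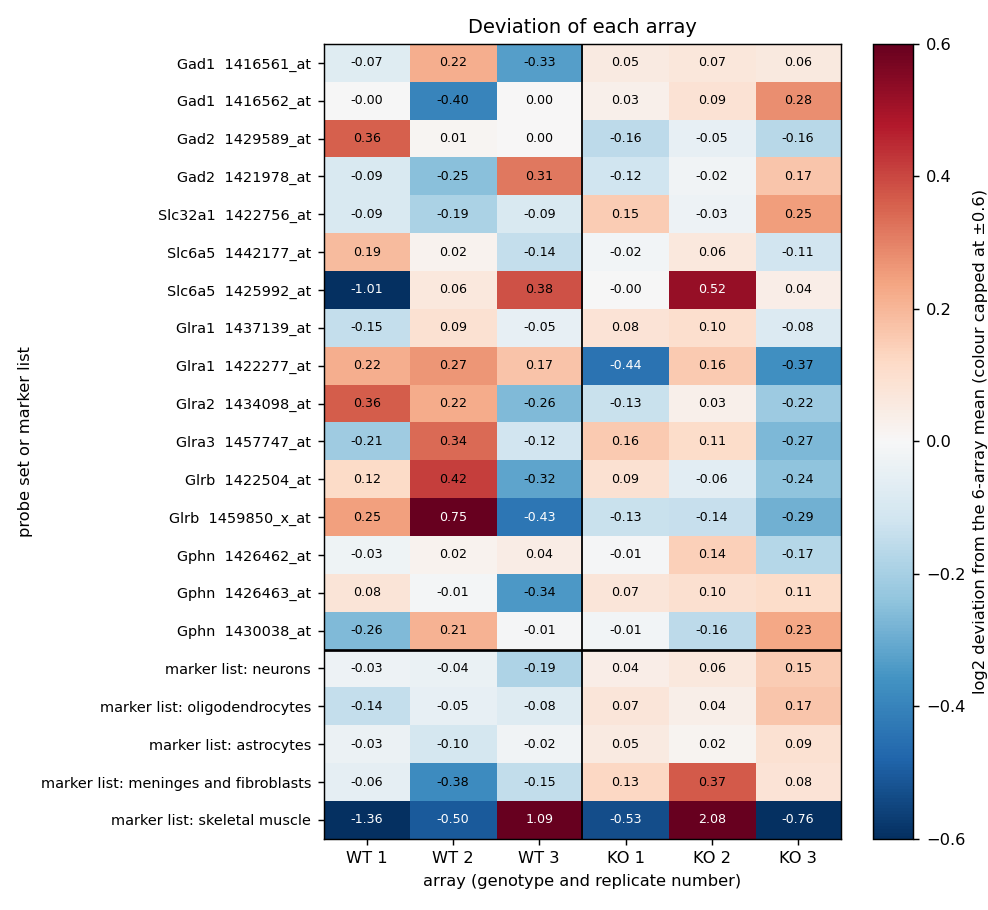
Log2 deviation of each array from the mean of all 6 arrays, for the 16 tested probe sets (upper block) and as the mean over 5 marker lists (lower block). Columns are arrays, colour is capped at 0.6 either way, and each cell prints its value. The wild type columns differ from one another at Glrb (0.42 on replicate 2 and -0.32 on replicate 3 at 1422504_at), and the muscle list stands out on wild type replicate 3 and knockout replicate 2.

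The genes whose array pattern was nearest to that of Slc6a5 were not other genes of inhibition. Likeness was the root mean square difference over the 6 arrays between log2 values, each set relative to its own mean, over 11644 genes with a single symbol. The nearest were Cpsf6, a factor of messenger RNA 3' end processing, at 0.023, the mitochondrial ribosomal gene Mrpl39 at 0.025, Akap9, a scaffold of the centrosome and Golgi, at 0.028, Lysmd3 at 0.03 and Slc9a9, a sodium proton exchanger of endosomes, at 0.031. Among the 9 genes, Gad2 was closest to Slc6a5 at 0.119, in place 1723, followed by Gphn at 0.123 and Glra2 at 0.137. Slc32a1, the transporter that acts with GlyT2 in the same terminals, was at 0.221 in place 6060. All these distances come from 6 arrays that share their scaling. They grow with the spread of a gene over the arrays as well as with a different pattern. The places of the other genes of inhibition are therefore not read as likeness or unlikeness to Slc6a5.

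Other genes were taken from 5 lists of inhibition and 1 of excitatory neurons, each gene at its brightest tested probe set, and 0 of 65 tested genes passed at an adjusted p under 0.05 in limma. Over the 11645 genes with a tested probe set, each at its brightest, 576 were higher and 379 lower at an unadjusted p under 0.05 in limma. The counts of each list below stand beside these. With single arrays left out, 4.10% to 14.2% of all tested probe sets were at that p in either direction. List counts without an array stand beside those shares. Glycine and GABA handling, which covers uptake into glia and the making and breakdown of both transmitters, had 14 of 18 genes tested, with 1 higher and 0 lower at an unadjusted p under 0.05 and a median log2 change of 0.07. The count higher was 0 without knockout replicate 3 and 2 without wild type replicate 3, and the count lower was 1 without knockout replicate 1 or any 1 of the wild type replicates. The gene higher was Slc6a9, which encodes GlyT1, the glycine transporter mainly of astrocytes. It read 3393, 3219 and 3147 in wild type and 4045, 3595 and 4556 in knockout, 1.24-fold (1.06 to 1.46, limma adjusted p = 0.591). All 3 knockout arrays were above all wild type arrays, unlike in Slc6a5, the neuronal partner. Abat, which breaks down GABA, was at 1.08-fold (limma adjusted p = 0.731), and the amino acid transporter gene Slc38a5 was at 0.66-fold, with wild type replicate 3 at 718 against 262 to 397 on the other 5 arrays (limma adjusted p = 0.6).

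The chloride gradient decides whether an open glycine receptor inhibits, and 10 of 10 genes of that list were tested. All 10 had a change above 0, with a median log2 change of 0.22 (0.12 after quantile normalization), 3 higher at an unadjusted p under 0.05 and 0 lower in limma. Over the 11645 genes with a tested probe set, each at its brightest, 6498 had a change above 0 and the median was 0.03, with 576 higher and 379 lower at that p. Bright probe sets leaned to higher values in knockout. With the filter raised to the 75th percentile, 779 of 11676 probe sets were higher and 245 lower at that p, with a median of 0.05. The list was not matched for brightness. The count of 3 became 0 without knockout replicate 3, 1 without wild type replicate 2 or knockout replicate 2 and after quantile normalization, and 5 without wild type replicate 1. Higher at that p were 1572 of 23069 tested probe sets without wild type replicate 1 and 390 of 22996 without knockout replicate 3. Slc12a5, which encodes KCC2, the neuronal chloride exporter, read 13430.4, 14175 and 13236 in wild type and 15250.2, 15937 and 16480 in knockout, 1.17-fold (1.03 to 1.32, limma adjusted p = 0.591). Slc12a2, which encodes the importer NKCC1, was at 1.16-fold with overlapping genotypes (limma adjusted p = 0.611). Car2, a carbonic anhydrase abundant in oligodendrocytes, was at 1.199-fold and the bicarbonate exchanger gene Slc4a3 at 1.23-fold (limma adjusted p = 0.594 each). The neuron and oligodendrocyte marker lists had similar median changes, 0.20 and 0.23 on the log2 scale, and their part in this list was not tested.

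The scaffold and adhesion list of the inhibitory synapse had 16 of 22 genes tested, with 0 higher and 1 lower at an unadjusted p under 0.05 in limma and a median log2 change of 0.09. Higher genes numbered 3 without wild type replicate 3 and 1 without wild type replicate 2 or knockout replicate 2, and lower genes 0 without wild type replicate 1 or knockout replicate 1 or 3. Scaling by the array median turned the counts to 3 higher and 0 lower, and centring on the tested probe sets to 1 higher and 0 lower. Array-median scaling put 2805 of all 23525 tested probe sets higher and 265 lower at that p, and centring 1125 and 819. Nlgn2, the neuroligin of inhibitory synapses, read 866, 914 and 1119 in wild type and 1006, 931 and 1199 in knockout, 1.08-fold (limma adjusted p = 0.849). Mdga2, which binds neuroligins, was the gene lower, at 0.71-fold (limma adjusted p = 0.598). Iqsec3, a partner of gephyrin, was at 1.17-fold and Dynll2, a dynein light chain that binds gephyrin, at 1.13-fold (limma adjusted p = 0.602 and 0.637).

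Many transcription factors that set inhibitory fate in the embryo did not pass the filter on dim signals in the adult cord. Pax2 and Bhlhe22 had 0 probe sets annotated to them alone, so their level was not measured. Of 20 listed, 8 were tested, with 0 higher and 0 lower at an unadjusted p under 0.05 and a median log2 change of -0.03, which was 0.13 without wild type replicate 2. A single gene was lower once wild type replicate 1 was left out. Pax8 was at 0.788-fold, Lhx1 at 1.28-fold and Foxp2 at 1.08-fold, all with overlapping genotypes (limma adjusted p = 0.696, 0.862 and 0.907). Products of inhibitory interneurons had 10 of 12 genes tested, with a median log2 change of 0.13, against 0.03 over the 11645 genes. At an unadjusted p under 0.05 in limma 3 were higher and 0 lower, against 576 and 379 of the 11645. The 3 were the neuropeptide genes Sst at 1.32-fold and Penk at 1.18-fold, both also expressed by excitatory cells of the dorsal horn, and the calcium-binding protein gene Necab2 at 1.26-fold (limma adjusted p = 0.591, 0.594 and 0.594). Which cells gave the signal of any of the 3, Necab2 included, was not tested. The 3 were 1 without knockout replicate 1 or 3. Genes of excitatory neurons, the counterpart, had 7 of 12 tested, with 1 higher, Tac2 at 1.299-fold (limma adjusted p = 0.591), 0 lower and a median of -0.05. With wild type replicate 1 left out it was 0 higher and 2 lower, without knockout replicate 1 or 3 it was 0 higher, and without wild type replicate 2 it was 2 higher. Slc17a6, the vesicular glutamate transporter of most excitatory cord neurons, read 6326, 6406 and 5768 in wild type and 6200, 5953 and 5705 in knockout, 0.966-fold with an interval of 0.844 to 1.1 (limma adjusted p = 0.896). Tlx3, a factor of excitatory fate, and Cck, a neuropeptide gene, were at 0.554-fold and 1.15-fold with overlapping genotypes (limma adjusted p = 0.671 and 0.696). Pax2 was not analysed here.

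**Figure D4:**
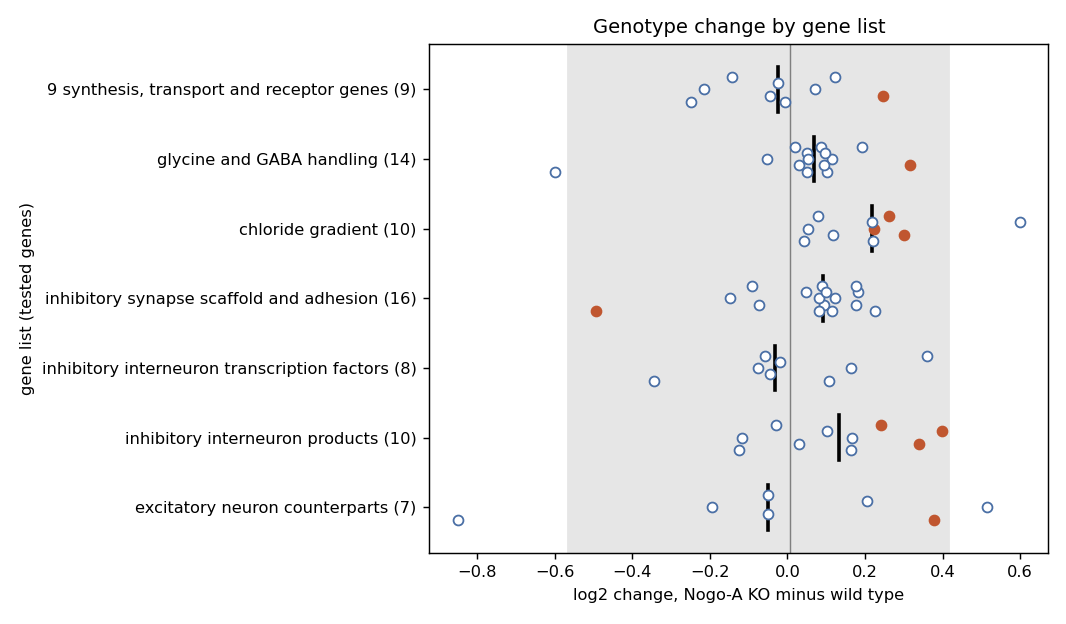
Log2 change of each tested gene at its brightest tested probe set, by list, with the number of tested genes in brackets. Filled points have an unadjusted p under 0.05 in limma, black bars are list medians, the grey line is the median and the grey band the 5th to 95th percentile of all tested probe sets. The 9 genes lie on both sides of 0 (median -0.02), while all 10 chloride gradient genes lie above it (median 0.22).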

How the data were processed

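The deposited values were linear intensities, made by the authors with GCOS 1.4 and its MAS 5.0 algorithm, per the submitters' processing notes. Each array had been scaled to a common mean after trimming 2% at either end, and no further scaling was applied. Division by the array median moves the median change of all tested probe sets to 0.23 on the log2 scale and became an alternative. The 64 control probe sets were left out. Symbols came from the platform annotation (34958 probe sets with 1, 932 with several, 9160 not listed), updated through RefSeq. limma 3.58.1 (R 4.3.3) with lmFit and trended eBayes was run on log2 values of 23525 probe sets and tested on simulated data. The number of arrays limits the precision. The labels do not tie replicate numbers to shared litters or days. Named genes were all probe sets of the 9 genes, 8 preset genes, up to 3 genes per list with the smallest p, and the 5 nearest to Slc6a5. The genes and lists were chosen with earlier results of these data known, and the probe set pairs were compared after values were seen.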

Additional observations from a re-analysis of the deposited data

How the results depend on the processing

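In each of the 18 alternatives that refit the probe sets, 0 of the 16 passed the adjusted threshold, and the lowest adjusted p was 0.114, for Glrb 1459850_x_at with wild type replicate 3 and knockout replicate 2 both left out. The number of the 16 at an unadjusted p under 0.05, 2 in the reported fit, was 1 after quantile normalization and without the eBayes trend, 5 with array weights, 6 with those 2 arrays left out, 0 in the methods' t-test, and 0 to 6 over single arrays left out. All tested probe sets were at that p in 6.50%, 7.80%, 14.7%, 14.1% and 7.15% in the first 5 of these fits and in 4.10% to 14.2% over single arrays left out, against 8.29% in the reported fit. Calls over all tested probe sets, 1 in the reported fit, were 0 without the trend, 6 with array weights, 3 with the 2 arrays left out and 0 to 9 over single arrays left out. The methods' t-test called 1136 at its own thresholds, 527 higher and 609 lower, of which 0 were among the 16 and 4 in the other lists, and 0 after Benjamini-Hochberg adjustment. The replicate block gave 4 calls over all tested probe sets and 4 of the 16 at an unadjusted p under 0.05, where 9.89% of all tested probe sets were. Same-numbered arrays had correlated deviations of -0.03, 0.07 and 0.11 for replicates 1 to 3. Each wild type array against the other-numbered knockout arrays had -0.05 to 0.08, -0.10 to 0.03 and -0.12 to 0.01. The same-numbered value was thus the higher one for replicates 2 and 3, but not for 1. All were small and the labels do not tie the numbers to litters or days, so they were not taken as pairs. At an unadjusted p under 0.05, array-median scaling moved all tested probe sets from 1013 higher and 937 lower to 2805 and 265, and the 16 from 1 higher and 1 lower to 2 higher (Gad1 1416562_at and Slc32a1) and 0 lower. Changes near 0 turned sign: Glra3 1457747_at was 0.0080 after quantile normalization, Gad2 1421978_at -0.0065 with the offset, Gad1 1416561_at -0.012 with array weights and -0.017 with the 2 arrays left out, and Gphn 1430038_at -0.039 with array weights. Over single arrays left out, log2 changes ran from -0.012 to 0.262 for Gad1 1416561_at, -0.104 to 0.178 for Gad2 1421978_at, -0.126 to 0.039 for Slc6a5 1442177_at, -0.035 to 0.660 for Slc6a5 1425992_at, -0.113 to 0.163 for Glra3 1457747_at, -0.337 to 0.030 for Glrb 1422504_at, -0.100 to 0.056 for Gphn 1426462_at and -0.080 to 0.155 for Gphn 1430038_at. Without a change of sign they ran from 0.129 to 0.329 for Gad1 1416562_at, -0.310 to -0.131 for Gad2 1429589_at, 0.015 to 0.133 for Glra1 1437139_at, -0.399 to -0.086 for Glra2, -0.684 to -0.093 for Glrb 1459850_x_at, and 0.061 to 0.272 for Gphn 1426463_at. Slc32a1 1422756_at ran from 0.183 to 0.325, with an unadjusted p in limma of 0.018 to 0.153. Glra1 1422277_at ran from -0.623 to -0.324, with an unadjusted p in limma of 0.0037 to 0.126. The cause was not tested.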
